A study of Danio rerio with 4 samples.

Results

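Fatty acids reach a cell inside lipoproteins or bound to carrier proteins, and are then desaturated, joined to coenzyme A, stored as droplets or oxidised in mitochondria and peroxisomes. In the fish ovary this traffic feeds the growing egg, which stores yolk lipid for the embryo. PPARs are nuclear receptors for fatty acids that control many genes of these steps, and some phthalate metabolites are known to bind them.

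The genes described here are 8 such genes, chosen by symbol for lipid transport, desaturation, activation and oxidation, among 49610 rows of the deposited tables (35066 of them with an Ensembl gene identifier). They are the carriers fabp4a (ENSDARG00000017299), apoeb (ENSDARG00000040295) and apoc1 (ENSDARG00000092170), the lipase inhibitor angptl4 (ENSDARG00000035859), the desaturase scd (ENSDARG00000033662), the activating enzyme acsl5 (ENSDARG00000075931), the oxidation enzyme hadhaa (ENSDARG00000057128) and the receptor pparg (ENSDARG00000031848). Each symbol matched exactly 1 row, with case ignored, and none shared its values with another row. All 8 reached a mean of at least 1 FPKM (fragments scaled to transcript length and library size) over the libraries, as did 13859 loci in all. They were picked with earlier results of these data known, so their counts are a description.

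The libraries hold whole-ovary RNA of wild-type zebrafish of the AB strain, 5 months old. The groups were a control, whose vehicle the labels do not state, females exposed for 30 days to dibutyl phthalate (DBP), females exposed to its branched isomer diisobutyl phthalate (DiBP), and females exposed to both compounds. There was 1 library per group, and neither doses nor the number of fish behind a library are given in the sources used here. No difference below therefore has a replicate error or a test, and each compares libraries, not conditions.

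The summed FPKM ran from 512635 to 598063. Absolute depth is unknown, so no counting interval can be given for a value, and from the steps between the lowest values the exposed libraries had 0.913 to 1.05 times the depth of the control. Oocyte markers such as bmp15 (75.5 to 106 FPKM) and zar1 (441 to 770 FPKM) were abundant in all 4 libraries, although zp3b was not found among the loci above 0. Of these markers the oocyte histone h1m varied most, at 531 FPKM in the control library, 1453 and 1889 in those of DBP and DiBP and 427 in the combined one. Differences are given as differences in log2(FPKM + 1), where 1 stands for 2-fold, and this scale understates the difference of low genes. A gene is said to be past 2-fold only on that scale.

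Of the 8 genes, fabp4a and apoeb differed most. The fatty acid carrier fabp4a, a small cytoplasmic protein best known from fat cells and macrophages of mammals, was at 1.55 FPKM in control ovary, 25.3 with DBP, 5.65 with DiBP and 8.79 with both. The control was lowest and every exposed library was past 2-fold above it, by 3.37 with DBP, 1.38 with DiBP and 1.94 with both. In the DBP library that difference was the 33rd highest of the 13859 loci. The DBP library also stood apart from the other exposed libraries, with log2 ratios to DBP of -1.98 for DiBP and -1.43 for the combined library. Its closest paralog by name, fabp4b, stayed between 0.0643 and 0.590 FPKM and was lowest in the DBP library, so that fabp4a made up 85.2% of the summed FPKM of the pair in the control and 99.7% in the DBP library.

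The apolipoprotein gene apoeb, whose protein coats lipoprotein particles and lets receptors take them up, was at 0.851 FPKM in control ovary, 11.3 with DBP, 3.25 with DiBP and 2.36 with both. As for fabp4a, the control was lowest and the DBP library highest. The difference from control was 2.74 with DBP, the 66th highest of all loci, 1.20 with DiBP and 0.86 with both, which missed 2-fold. With a pseudocount of 0.1 FPKM the combined library was past 2-fold as well, at 1.37. The paralog apoea was below 0.07 FPKM in all 4 libraries.

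The small apolipoprotein gene apoc1, a modifier of lipoprotein enzymes and receptors, differed less. It was at 2.37 FPKM in control ovary, 5.26 with DBP, 1.93 with DiBP and 3.76 with both. It was again highest in the DBP library, but here DiBP and not the control was lowest. No exposed library was past 2-fold from control (0.89, -0.20 and 0.50 for DBP, DiBP and the combined exposure), although DBP was at 1.12 with a pseudocount of 0.1 FPKM. Between the isomers the difference was past 2-fold, with DiBP below DBP (log2 ratio -1.10).

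The gene angptl4 encodes a secreted inhibitor of lipoprotein lipase, the enzyme that frees fatty acids from circulating lipoproteins, and is a known PPAR target in mammals. It was at 1.44 FPKM in control ovary, 4.19 with DBP, 5.90 with DiBP and 2.16 with both. Both single exposures were past 2-fold above the control (1.09 for DBP and 1.50 for DiBP), and the combined library was not (0.38). DiBP was the highest library for this gene, unlike for the carriers, but exceeded DBP by 0.41, short of 2-fold.

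**Figure D1:**
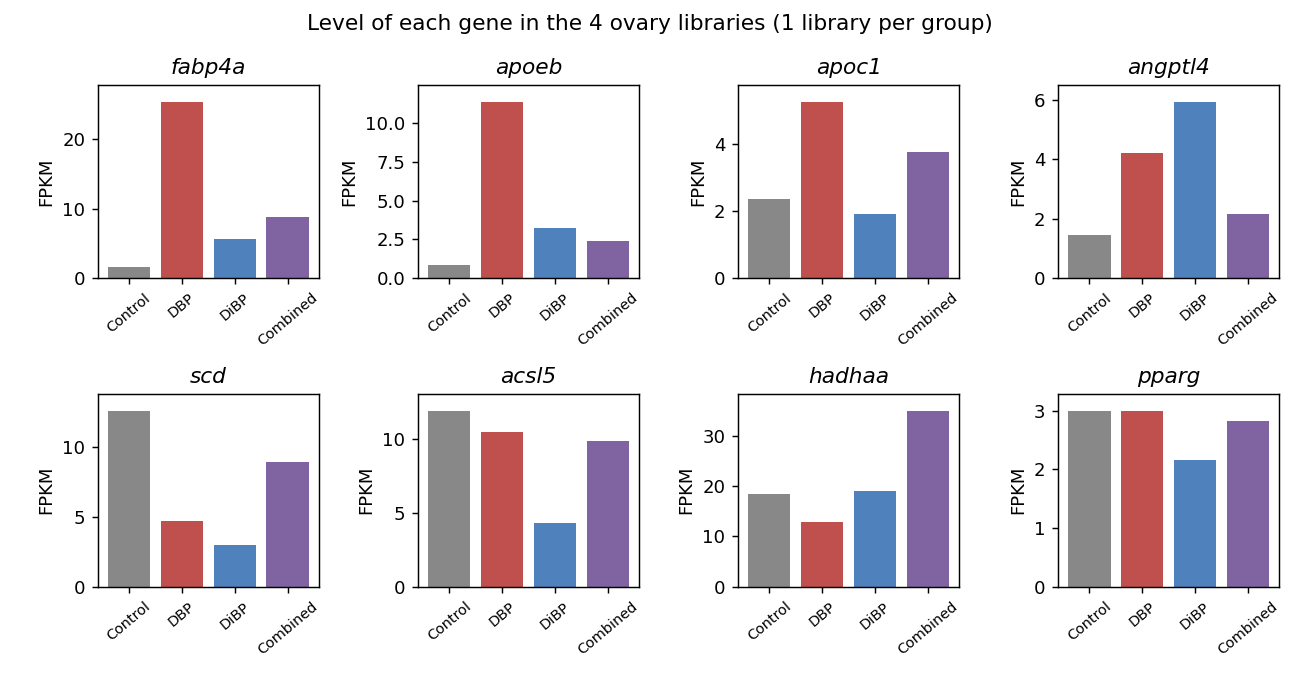
Level in FPKM (vertical axis, linear from 0, with its own range in each panel) of the 8 genes in each library (bars). The DBP bar is the tallest for fabp4a (25.3), apoeb (11.3) and apoc1 (5.26), the control bar for scd (12.6) and acsl5 (11.8), and the combined bar for hadhaa (34.8).

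The desaturase and the activating enzyme lay on the other side of the control. The stearoyl-CoA desaturase gene scd, whose enzyme puts a double bond into saturated fatty acids, was at 12.6 FPKM in control ovary, 4.70 with DBP, 3.01 with DiBP and 8.96 with both. The control was highest, both single exposures were past 2-fold below it (-1.25 for DBP and -1.76 for DiBP), and the combined library was within 2-fold (-0.45). The paralog scdb was below 0.08 FPKM everywhere and listed at 0 in the DBP and combined libraries.

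The acyl-CoA synthetase gene acsl5, whose enzyme joins long-chain fatty acids to coenzyme A, was at 11.8 FPKM in control ovary, 10.4 with DBP, 4.31 with DiBP and 9.81 with both. Here a single library differed. DiBP was past 2-fold below the control (-1.28) and below DBP (-1.11), and the combined library exceeded DiBP by 1.03, just past 2-fold. The control, DBP and combined libraries lay close together, with differences from control of -0.17 and -0.25.

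The gene hadhaa encodes an alpha subunit of the mitochondrial trifunctional protein, which carries out the last steps of each round of long-chain fatty acid oxidation. It was at 18.4 FPKM in control ovary, 12.9 with DBP, 19.0 with DiBP and 34.8 with both. The combined library was highest, short of 2-fold from control (0.88) and past it from DBP (1.37). The other genes of the same complex did not share this order. The locus named HADHA in the table of symbols was at 47.6, 43.5, 34.0 and 47.4 FPKM in control, DBP, DiBP and combined libraries in turn, and that of the beta subunit HADHB at 36.1, 30.9, 20.4 and 26.5. As a result hadhaa made up 27.9% of the summed FPKM of the 2 alpha subunit genes in the control and 42.3% in the combined library.

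The receptor gene pparg, the regulator of fat storage in mammals, varied least of the 8. It was at 2.99 FPKM in control ovary, 2.99 with DBP, 2.16 with DiBP and 2.83 with both. DiBP was lowest, and no pair of libraries was past 2-fold. The highest level was 1.38 times the lowest.

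**Figure D2:**
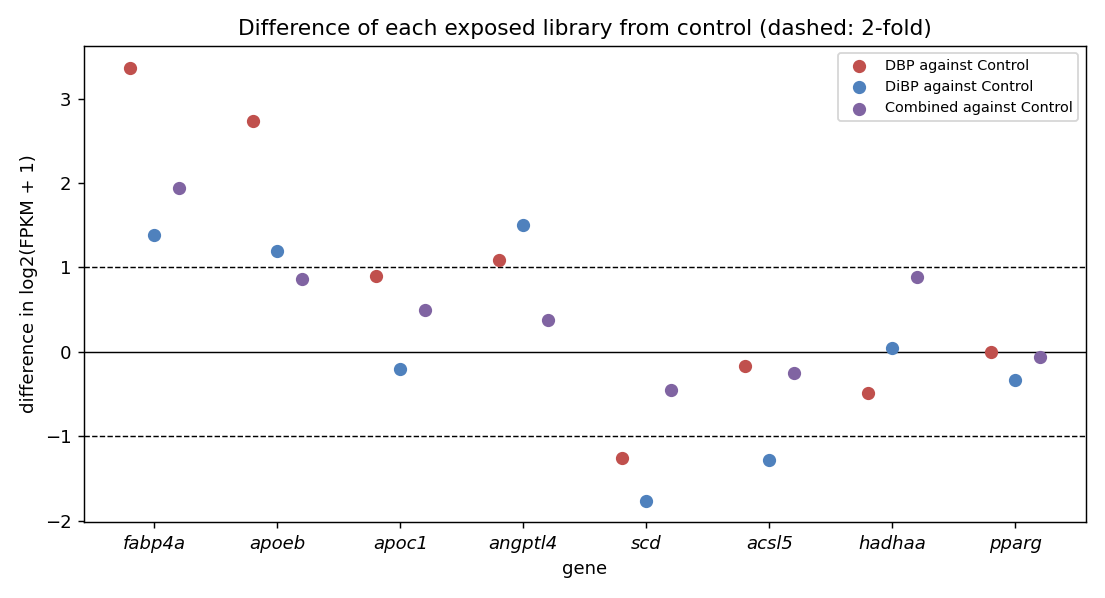
Difference in log2(FPKM + 1) from control (vertical axis) for each of the 8 genes (horizontal axis) in the DBP, DiBP and combined libraries (points, 1 library against 1). Dashed lines mark 2-fold. Points of fabp4a and apoeb lie above 0 for every exposure and reach 3.37 and 2.74 for DBP, scd lies below 0 for every exposure, and pparg stays near 0.

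Counted together, 4 of the 8 genes were past 2-fold from control in the DBP library, where 8.12% of all measured loci were: fabp4a, apoeb and angptl4 were higher and scd lower. In the DiBP library 5 of 8 were, against 14.3% of all loci, with fabp4a, apoeb and angptl4 higher and scd and acsl5 lower. In the combined library it was fabp4a alone (1 of 8, against 6.71% of all loci). Low loci pass 2-fold more often, and among loci with a mean of 1 to 5 FPKM, where apoeb, apoc1, angptl4 and pparg lie, the shares were 11.5%, 18.8% and 10.3% for DBP, DiBP and the combined exposure. These comparisons share the control library, so a low control value enters all 3 differences of fabp4a and of apoeb. The median over the 8 genes was 0.45, -0.08 and 0.44, beside 0.01, -0.06 and -0.08 over all loci.

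Set beside each other at the same 30 days, the libraries of the 2 isomers differed past 2-fold at 4 of the 8 genes, against 8.21% of all loci. All 4, fabp4a, apoeb, apoc1 and acsl5, were lower with the branched compound DiBP than with DBP (4.24% of all loci were past 2-fold lower). The other 4 were within 2-fold between the isomers, with differences (DiBP minus DBP) of 0.41 for angptl4, -0.51 for scd, 0.53 for hadhaa and -0.34 for pparg. Without replicates no interval can be put on these differences, and it is not known whether the doses matched.

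The 4 libraries can also be set in pairs with and without each compound, pairs that share no library. Each compares 1 library with 1 other. Whether the combined library had the same dose of each compound as the single exposures is not known. DiBP exceeded the control at fabp4a and apoeb (1.38 and 1.20), whereas the combined library, which is DiBP with DBP, lay below DBP alone (-1.43 and -1.87). The 2 genes thus were past 2-fold in opposite directions, as 149 of the 13859 loci were in these directions (1.08%). Likewise DBP was above the control at angptl4 (1.09) while the combined library was below DiBP alone (-1.13), a pair of differences past 2-fold shared with 1.05% of loci. The reverse held at scd, with -1.25 for DBP against control and 1.31 for the combined library against DiBP (0.815% of loci). In these terms 3 of 8 genes were past 2-fold between the combined library and DBP (7.3% of all loci) and 3 of 8 between the combined library and DiBP (10.4%). For all of fabp4a, apoeb, angptl4 and scd the combined library lay between the control and the library that differed most from it.

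**Figure D3:**
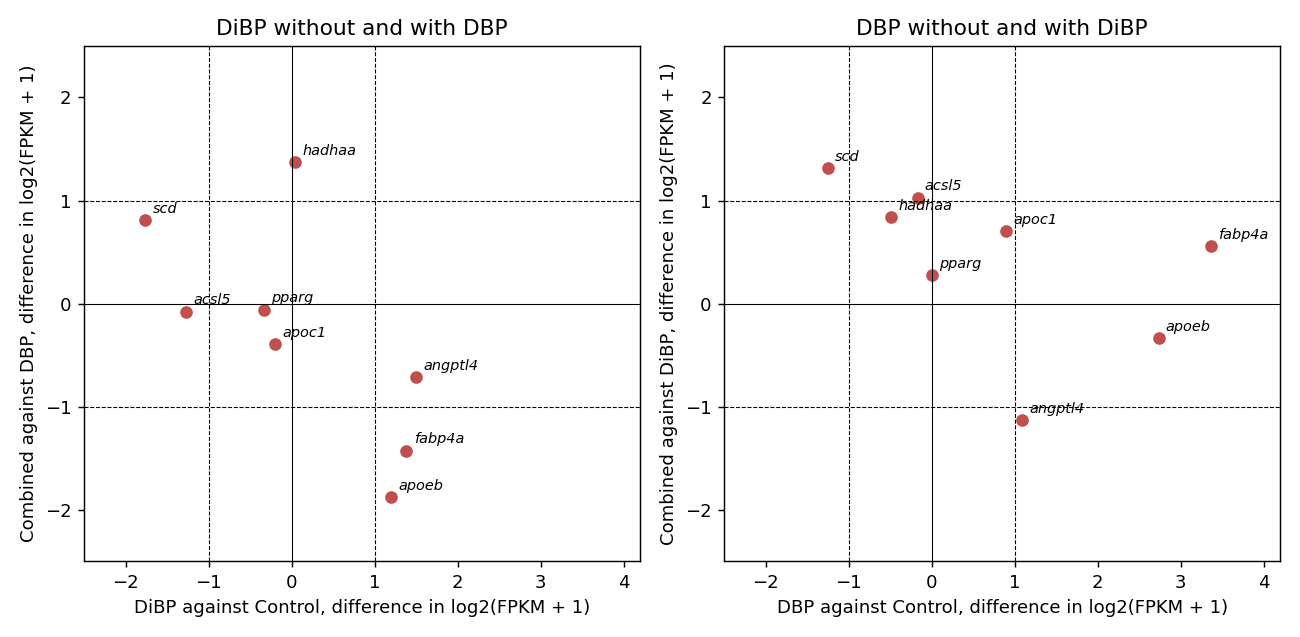
Difference in log2(FPKM + 1) for DiBP against control (left, horizontal) and the combined library against DBP (left, vertical), and for DBP against control (right, horizontal) and the combined library against DiBP (right, vertical), for the 8 genes (points). Dashed lines mark 2-fold. On the left fabp4a and apoeb fall at the lower right (1.38 with -1.43, and 1.20 with -1.87), and on the right scd falls at the upper left (-1.25 with 1.31) and angptl4 at the lower right (1.09 with -1.13).

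Markers of leukocytes, among them the macrophages that use fabp4 and apoe genes in mammals, were measured beside the carriers. Of 10 leukocyte loci, 10 were above control by any amount with DBP, 8 with DiBP and 7 with both. The loci came from 9 of 10 listed symbols, and the macrophage marker mpeg1.1 was not found among the loci above 0. High counts were not particular to leukocytes, but they take no account of size, and many of these loci were below 1 FPKM. Granulosa loci gave 7, 6 and 5 of 7, and theca and steroid cell loci 6, 5 and 4 of 6. Oocyte loci gave 5, 2 and 0 of 7, and vessel loci 3, 4 and 1 of 6. Hepatocyte loci gave 4, 4 and 7 of 7, adipocyte loci 4, 2 and 1 of 6, and red blood cell loci 3, 2 and 2 of 3. The share of all loci above control was not counted. Over the loci that pass the 1 FPKM filter the median difference was 0.01, -0.06 and -0.08. Many marker loci fall below that filter, so this median is no baseline for their counts. Loci listed at 0 in the control library, such as csf1ra, FSHR and hbaa1, cannot be lower than the control. The summed level of the leukocyte loci was 4.85 FPKM in control ovary, 50.3 with DBP, 30.9 with DiBP and 19.3 with both. Much of this came from a merged locus of MFAP4 genes, at 0.964, 38.2, 23.1 and 12.1 FPKM. Over the 8 loci of a single gene symbol the sums were 3.25, 11.2, 5.99 and 5.73 FPKM. That was the order of apoeb, with DiBP and combined close together, but not that of fabp4a or apoc1. The order of DiBP and combined in this sum rested on cd74a, at 2.74 and 0.485 FPKM. Without cd74a the combined sum would lie above that of DiBP, which is the order of fabp4a. Among these loci ptprc and SPI1 had the order of apoeb, and marco, cd74a, lyz and LCP1 did not. The scavenger receptor marco was at 0.0499, 1.67, 0.0221 and 0.0594 FPKM and the antigen presentation gene cd74a at 1.04, 4.39, 2.74 and 0.485, while csf1ra was listed at 0 in the control and combined libraries. The list went several ways: lyz was at 0.922, 0.949, 1.09 and 2.64, highest in the combined library. A further MFAP4 locus, which joins several Ensembl rows of that symbol, was at 0.584, 1.88, 1.01 and 1.93, also highest there. The part of leukocyte RNA in the carrier differences was not tested. In whole ovary, more cells of a type and more RNA per cell cannot be told apart.

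Markers of theca and other steroid cells, which use cholesterol, summed over 6 loci to 68.7, 95.2, 52.2 and 81.6 FPKM. Nearly all of it came from CYP11A1 (58.4, 80.3, 34.1 and 67.3) and CYP17A1 (10.1, 13.4, 17.0 and 13.7). The order of the sum was that of this CYP11A1 locus, and also of apoc1, but no other locus of the list had it. A second CYP11A1 locus was at 0.0455, 0.190, 0.128 and 0.0328 FPKM. STAR, hsd3b1 and lhcgr were below 1 FPKM in every library as well. CYP17A1 was instead highest with DiBP, where 5 of the 6 loci were above control although the sum was below it. Markers of fat and liver cells were low. The 6 adipocyte loci summed to 2.13 FPKM in control ovary, 2.19 with DBP, 0.678 with DiBP and 1.15 with both. The 7 hepatocyte loci summed to 0.619, 0.760, 1.17 and 4.48 FPKM, highest in the combined library. There a merged locus of vitellogenin genes was at 1.42 FPKM and the vitellogenin gene vtg2 at 1.01, and all 7 loci were above control by some amount. The liver carrier fabp10a was listed at 0 in the DBP library, as was apoa2 in the control and DBP libraries. Granulosa markers, over 7 loci, summed to 2.39, 7.22, 6.41 and 2.93 FPKM, and without the aromatase locus CYP19A1 (0.677, 3.65, 4.18 and 0.837) the other 6 summed to 1.71, 3.56, 2.23 and 2.09. The vessel list (6 loci) stayed between 2.39 and 3.26 FPKM and the red blood cell list (3 loci) between 0.238 and 2.01. Of their listed markers, pecam1, hbba1 and hbba2 were not found. The part of the cells these markers stand for was not tested.

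**Figure D4:**
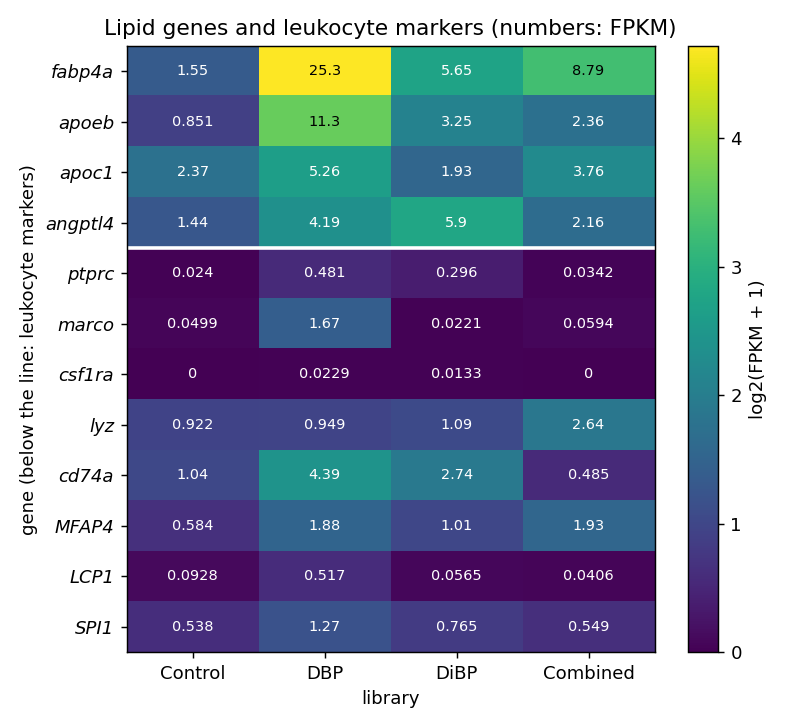
Levels of fabp4a, apoeb, apoc1 and angptl4 (above the line) and of the 8 leukocyte loci of a single gene symbol (below it) in the 4 libraries. Colour gives log2(FPKM + 1) and the printed numbers give FPKM. In the DBP column marco reads 1.67 and cd74a 4.39, the highest of their rows, whereas lyz (2.64) and MFAP4 (1.93) are highest in the combined column.

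The wider pathway was read from 9 lists by role, with 179 symbols, of which 166 were found. They gave 101 measured loci, 93 of them besides the 8 genes. Of these 93, 1 was past 2-fold higher and 4 lower in the DBP library (4.81% and 3.31% of all loci were). In the DiBP library 2 were higher and 7 lower (7.25% and 7.04% of all loci), and in the combined library 0 were higher and 4 lower (3.48% and 3.23%). The median difference of the 93 was -0.13, -0.29 and -0.16, beside 0.01, -0.06 and -0.08 over all loci, and it stayed below 0 under each scaling tried. The shares of all loci given here also stand beside the counts of each list below. Each list holds few loci, so its counts are a description.

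Of the 7 measured carriers inside the cell, 2 were past 2-fold higher with DBP, 3 with DiBP and 1 with both, and 0 were lower. Besides fabp4a these were an FABP7 locus, a carrier known from brain, at 0.350, 1.78, 2.63 and 0.924 FPKM in control, DBP, DiBP and combined libraries in turn, and a locus of acbd3, a Golgi protein with an acyl-CoA binding domain, at 6.50, 5.84, 14.7 and 8.22. The acbd3 call with DiBP and the FABP7 call with DBP are near the limit. Scaling to the total put acbd3 at 0.96 with DiBP. Leaving the 50 most abundant loci out of that total put FABP7 at just under 2-fold with DBP. With DiBP, FABP7 was at 1.43 and stayed past 2-fold under each scaling tried. A second ACBD3 locus was more abundant than the acbd3 locus above, at 19.0, 19.7, 26.8 and 17.4 FPKM, and was within 2-fold in each library. The acyl-CoA binding protein gene DBI was also within 2-fold in each, at 35.6, 33.1, 50.5 and 30.2. The most abundant carrier was FABP3, at 380, 276, 426 and 339 FPKM, far above fabp4a in every library and within 2-fold.

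Of the 5 measured apolipoprotein and assembly loci, 1 was past 2-fold higher with DBP and 2 lower, 1 was higher with DiBP, and 1 was lower with both. The higher locus was apoeb in each case. An APOD locus, of a lipocalin that carries small lipids, was at 175 FPKM in control ovary, 64.4 with DBP, 176 with DiBP and 195 with both, so the DBP library alone was low. The gene apom, of a high density lipoprotein lipocalin, was at 3.14, 0.865, 4.36 and 0.262 FPKM, low in both libraries that had received DBP. The gene apool, whose protein belongs to the inner mitochondrial membrane and not to lipoproteins, was at 27.6, 13.9, 15.4 and 22.0, within 2-fold. The 5 loci thus went both ways with DBP, from -1.43 for APOD to 2.74 for apoeb. With total scaling apool was past 2-fold as well (-1.01).

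Among 11 measured loci of lipases, their inhibitors and uptake receptors, angptl4 was the 1 past 2-fold higher, in the single exposures. VLDLR, a lipoprotein receptor that serves yolk uptake in birds, was at 133, 105, 39.5 and 98.7 FPKM and was past 2-fold lower in the DiBP library (-1.73). The hormone-sensitive lipase gene lipeb (3.34, 2.06, 1.71 and 2.12 FPKM) and a fatty acid transporter locus of SLC27A1 (21.5, 16.5, 14.1 and 23.4) were within 2-fold. The LPL loci, whose enzyme the angptl4 protein inhibits, were below the 1 FPKM filter. They were at 0.0240, 0.320, 1.30 and 0.418 FPKM and at 0.140, 0.607, 0.692 and 0.452, given in the order control, DBP, DiBP, combined, with the control lowest in both.

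Of 13 measured synthesis loci, 2 were past 2-fold lower with DBP, 3 with DiBP and 1 with both, scd being among those for DBP and for DiBP, and 0 were higher. The list medians were -0.40, -0.50 and -0.29, and members lay on both sides of 0, with ELOVL5 at 0.22 for DBP and 0.52 for DiBP. A locus that holds ME1, the malic enzyme that supplies reducing power for synthesis, and also MCHR2 was at 11.3, 4.92, 3.25 and 3.25 FPKM. The 2 genes cannot be told apart there. The elongase genes elovl8b (8.72, 14.0, 3.85 and 4.51 FPKM) and ELOVL4 (15.8, 9.60, 8.10 and 9.42) were lowest in the DiBP library, and elovl8b alone was past 2-fold there, though not with median-of-ratios scaling (-0.93).

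Of the 11 measured activation loci, 3 were lower in the DiBP library and 0 were past 2-fold in the DBP or combined library. Beside acsl5 these were ACSS2, which activates acetate, at 7.55, 5.94, 1.62 and 4.68 FPKM, and acsl2, at 3.53, 1.70, 1.24 and 2.12. With median-of-ratios scaling acsl2 was at -0.96, within 2-fold. The related acsl1b was within 2-fold, at 3.11, 1.35, 1.57 and 2.87. For acsl5, ACSS2 and acsl2 alike the control was highest and the DiBP library lowest.

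None of 21 measured mitochondrial oxidation loci was past 2-fold from control in any exposed library as deposited, with medians of -0.03, -0.29 and -0.14. Of all measured loci 8.12%, 14.3% and 6.71% were past 2-fold, so 21 loci are few for such a count. The thiolase ACAA2 was at 21.8, 30.7, 10.8 and 14.5 FPKM, the carnitine carrier SLC25A20 at 141, 92.4, 77.7 and 110 and the isomerase ECI1 at 49.7, 74.8, 89.2 and 45.0. With total scaling ACAA2 was past 2-fold lower in the DiBP library (-1.06, from -0.95). Of 13 measured peroxisomal loci, 1 was past 2-fold, HSD17B4, a multifunctional oxidation enzyme, at 10.3, 7.49, 5.83 and 3.71 FPKM, lower in the combined library (-1.26). ACOX3 (6.38, 5.83, 4.06 and 3.28 FPKM) and EHHADH (20.7, 20.6, 14.3 and 14.5) were within 2-fold.

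Among 9 measured loci of triglyceride synthesis and droplets, the acyltransferase MOGAT2 was lower in the DBP library (7.27, 2.65, 10.6 and 6.46 FPKM) and a DGAT1 locus in the combined library (3.50, 1.79, 3.28 and 1.16). The DGAT1 call does not hold with median-of-ratios scaling, at just under 2-fold. AGPAT2 was within 2-fold (2.63, 1.81, 1.20 and 1.84). Of 11 measured regulators, 2 were past 2-fold, both lower in the DiBP library: SREBF1, the activator of fatty acid synthesis genes that include scd in mammals, at 4.42, 1.97, 1.27 and 3.80 FPKM, and srebf2, its relative for cholesterol genes, at 26.1, 14.1, 11.6 and 23.3. Both had the order of scd, with the control highest, the combined library next, then DBP and then DiBP. Other listed loci had this order too, among them ACLY, ACACA, RXRB, SLC25A20 and ACADVL. Others did not. The synthesis loci FASN (7.41, 4.56, 4.96 and 4.86 FPKM) and TECR (38.6, 28.8, 31.3 and 30.6) were lowest with DBP. The regulator insig1 was highest in the combined library, at 13.7 FPKM. The share of all loci with the order of scd was not counted. The regulator gene MLX was within 2-fold, at 7.33, 11.1, 11.3 and 7.87.

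**Figure D5:**
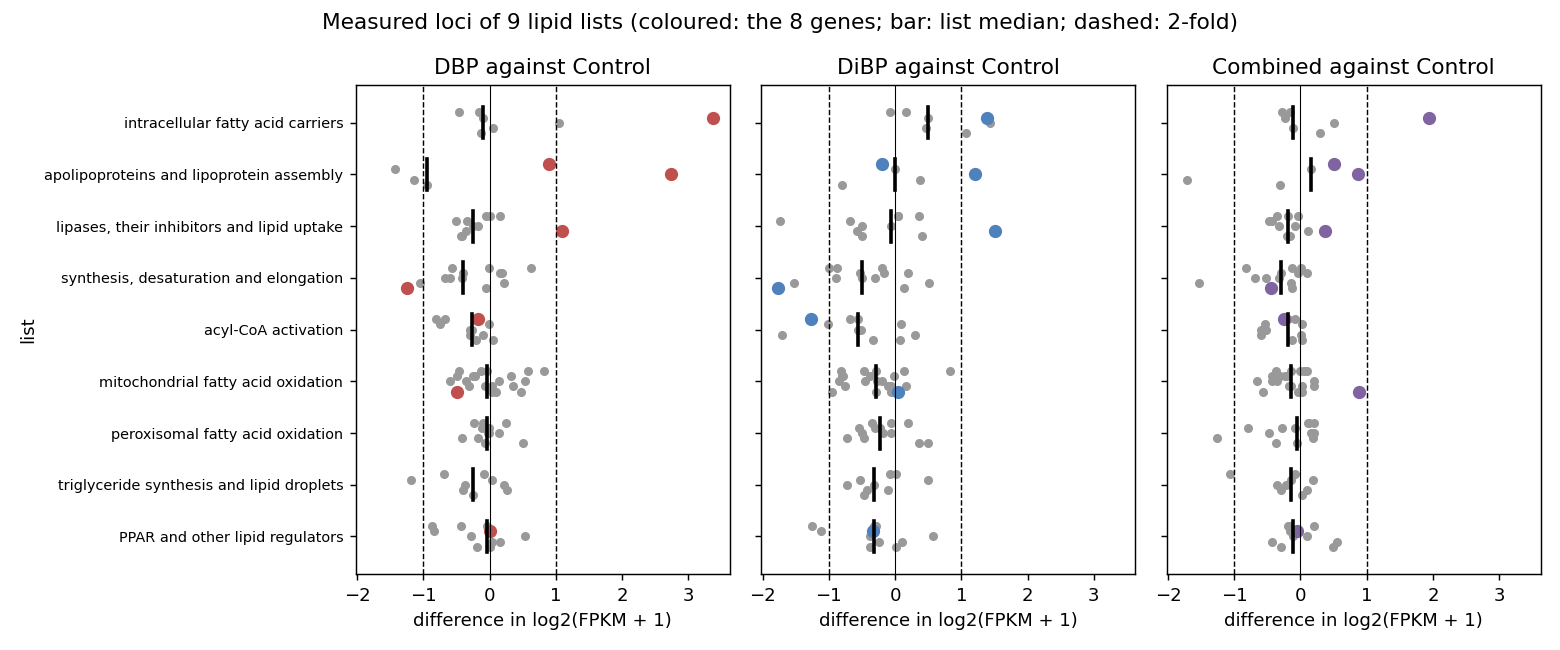
Difference in log2(FPKM + 1) from control (horizontal axis) of the 101 measured loci in 9 lists by role (vertical axis) for the DBP, DiBP and combined libraries (panels). Large coloured points are the 8 genes, grey points the other loci, short bars the list medians and dashed lines 2-fold. All 21 mitochondrial oxidation loci lie within the dashed lines, where 8.12%, 14.3% and 6.71% of all measured loci were past 2-fold. The carriers fabp4a and apoeb lie farthest to the right for DBP.

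Genes with the most similar pattern were taken as those with the smallest Euclidean distance over the 3 differences from control, among 8109 other measured loci with a symbol of their own. For apoeb these were selenop, which encodes a secreted selenium carrier (distance 0.42; 0.604, 6.99, 2.64 and 1.88 FPKM), PIPOX (0.50) and col28a2b (0.53). For fabp4a nothing lay that close: FKBP6 was at 0.95 and the mitochondrial transcript MT-ND1 at 1.23, and apoeb itself came next at 1.26. For scd the nearest were hlcs (0.13), MED25 (0.16) and lrr1 (0.19), and for acsl5 ap1ar (0.03), SLC35E3 (0.08) and kiz (0.12). For angptl4 they were pclaf (0.09), ywhaqb (0.11) and tex30 (0.12), and those close to apoc1 included pigrl2.4 (0.13) and slc44a4 (0.19). For hadhaa they were kcnq1.2 (0.29), june (0.32) and SRSF7 (0.32), and for pparg OSBPL7 (0.03), cyld3 (0.03) and MRPL15 (0.03). All these patterns rest on the same 4 libraries.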

How the data were processed

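Ovary RNA of 4 groups was sequenced, 1 library each. The deposited values are taken as FPKM, which the authors computed per gene; no header or label names the unit, and it was read from the values. HISAT2, HTSeq 0.6.1 and GRCz10 appear in the submitters' processing notes. Settings, annotation and strand use are not stated in these sources, so reads of overlapping genes may be mixed. The DiBP and combined columns have other short names per the file headers; the sample recorded for each table was used. Symbols came from a table that matched 26996 of 35066 Ensembl rows; where it lacked a listed symbol, the final paralog letter was dropped.

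Rows with 4 identical values were joined, leaving 35253 loci above 0. Differences in log2(FPKM + 1) were taken over the 13859 loci whose mean reached 1 FPKM, with no further scaling, and called at 2-fold. No test was possible. Relative depth came from the commonest ratio of values below 0.05 FPKM. From each list up to 3 genes with the largest difference from control are named. Outside that rule, FABP3, the LPL loci, ELOVL5 and the second ACBD3 locus were named after their values were seen. The same holds for the further loci set beside scd by their order. Paralogs and HADHB were named as relatives of the 8 genes. A gene that the likeness rule takes is not reported here. The 8 genes and the lists were chosen with earlier results of these data known. The code was tested on simulated data. Python 3.11.15, numpy 2.4.6, pandas 2.3.3 and matplotlib 3.10.9 were used.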

Additional observations from a re-analysis of the deposited data

Results flagged for a closer look

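With 1 library per group no sample can be set against others of its group. At 4 of the 8 genes the libraries with and without a compound differed past 2-fold, in opposite directions without and with the other compound. The same held at 2.55% of all measured loci. This was not tested, and whether the doses matched is not known. On the log2 scale, the combined library minus DBP, less DiBP minus control, came to -2.81 for fabp4a and -3.07 for apoeb. The combined library minus DiBP, less DBP minus control, came to -2.22 for angptl4 and 2.57 for scd.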

How the results depend on the processing

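No paired analysis was possible because each group has 1 library. With a pseudocount of 0.1 FPKM, 1883 of the 13859 loci were past 2-fold from control in the DBP library and 1693 in the combined one. The pseudocount of 1 FPKM gave 1126 and 930. In the DiBP library the number was 2930, from 1981. It was 1807 for DiBP against DBP, 1733 for the combined library against DBP and 2323 for the combined library against DiBP. The pseudocount of 1 FPKM gave 1138, 1012 and 1438 for these pairs. Beside these numbers, 5 of the 8 genes were past 2-fold from control with DBP (4 as reported). With DiBP it was 5 (5 as reported), and in the combined library 2 (1 as reported). At a mean of at least 5 FPKM, which leaves fewer loci, the counts were 503 for DBP, 959 for DiBP (1981 as reported), 369 for the combined exposure, and 459, 432 and 711 for the pairs of exposed libraries in the order above. Just fabp4a, scd, acsl5 and hadhaa pass that filter, and 2, 3 and 2 of them were past 2-fold for DBP and DiBP against control and DiBP against DBP. The list loci past 2-fold were then 5, 8 and 3 for DBP, DiBP and the combined exposure, from 9, 14 and 5. The numbers of all loci and of list loci that pass this filter are not given here. These counts, also those of the 8 genes, therefore have no share beside them and are a description.

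The filter and the joining of rows cannot change the difference of a single gene. Under the other pseudocount and the 3 scalings, 188 of 192 differences of the 8 genes stayed on the same side of 2-fold. No difference past 2-fold changed sign, and 10 within 2-fold did, all of at most 0.08 as reported, for hadhaa, acsl5 and pparg. Besides apoc1 and apoeb, given above, the exceptions came with scaling to the total of all but the 50 most abundant loci, for the combined library against DiBP: -0.99 for angptl4 and 1.02 for hadhaa. That scaling put the median of all loci in this pair at 0.14 (-0.01 as deposited) and the share of calls that were higher at 59.2% (42.5%); for the combined library against DBP the share was 52.8% (37.8%). Total scaling put the median for DiBP at -0.16 (-0.06). List medians changed sign with scaling for apolipoproteins and for lipases with DiBP and for peroxisomal oxidation with the combined exposure, all near 0. Leaving out loci with a second named gene, an alternative chosen after seeing the data, and exact symbols left the list counts within 1.5 times. The limits are the lack of replicates and the unknown depth, which weigh most on genes near 1 FPKM, such as apoeb in the control.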
